A study of Mus musculus with 19 samples.

Results

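Resident type 1 conventional dendritic cells (DC1) of mouse lymph nodes were compared between animals with and without Batf3. The comparison used 6 of the 19 arrays of the series, 3 of Batf3-/- Irf8VENUS+ resident DC1 and 3 of WT Irf8VENUS+ resident DC1, taken by their titles. All of these mice were on a C57Bl/6j background, and cells of both genotypes carried Irf8VENUS, a fluorescent reporter of the gene Irf8. Inguinal, cervical and brachial nodes were digested, and DC1 were sorted as CD11c+ MHCII+ CD24+ cells that were negative for B220, EpCam and CD172, with resident cells taken from the gate of high CD11c and intermediate MHCII. The lymph node labels give no age or sex. They leave unsaid whether different mice gave the arrays of 1 group, so a p-value here measures the spread between these arrays, part of which may be technical. Arrays were Affymetrix gene arrays with values on a log2 scale, on which a difference of 1 is a doubling. For comparison, 5 arrays of migratory DC1 from the same nodes (3 Batf3-/- and 2 WT) and 6 arrays of Irf8VENUS+ spleen DC1 (3 and 3) were used.

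DC1 take up material from dying cells and present its antigens to CD8 T cells. Resident DC1 reach the node from the blood as precursors, whereas migratory DC1 arrive from the skin through lymph. BATF3 is a basic leucine zipper factor of the AP-1 family that binds DNA together with JUN proteins and IRF8 and sustains Irf8 transcription during DC1 development, so mice without it usually have few DC1. The Batf3-/- cells compared here are those that met the DC1 gate and, like the WT cells, carried Irf8VENUS. The part of Irf8VENUS in these values was not tested. Fewer cells of a type in a sorted sample and less RNA per cell cannot be told apart on such arrays.

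The 6 resident arrays carried the transcripts of the gate. Batf3 stood at 8.15, 8.62 and 8.37 in WT cells and at 5.96, 5.76 and 5.50 in Batf3-/- cells, 6.23-fold lower (limma log2 difference -2.64 ± 0.17 (SE), adjusted p = 7.87e-06). The groups did not overlap, although the Batf3-/- arrays stayed above the level of 4.82 used as the filter on dim genes. Whether the probe set lies in the deleted part of the gene is not stated. Irf8, which encodes the factor that drives the DC1 programme and with it the reporter, was among the brightest genes, at 12.39, 12.68 and 12.72 in WT and 12.49, 12.51 and 12.37 in Batf3-/- cells. Its difference of -0.14 ± 0.18 was not called (limma adjusted p = 0.974). Cd24a, Itgax, Ptprc and H2-Ab1, whose products were used in the gate or mark leukocytes, differed by -0.11, 0.63, 0.21 and -0.04, and none was called.

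Sirpa, which encodes CD172, the marker the gate left out, was not even across the WT arrays. It stood at 7.82 on WT replicate 1 against 5.31 and 5.67 on the other WT arrays, and at 5.45, 4.93 and 5.33 on the Batf3-/- arrays. WT replicate 1 was likewise the highest of the 6 arrays for Cd209a (9.68), Cd209d (9.36), S100a4 (9.17) and Csf1r (6.58). Fcrla and Fcgr2b were higher on Batf3-/- replicate 1 than on the other arrays of its group, and Batf3-/- replicate 3 had the lowest mean correlation with its group, 0.972 against 0.98 to 0.989 for the other 5. Without WT replicate 1 the difference of Sirpa went from -1.03 to -0.26, that of Cd209a from -0.42 to 0.43, that of Csf1r from -0.70 to -0.17, that of S100a4 from -0.68 to -0.03 and that of Cd209d from -1.84 to -1.24, and none was called by limma with or without it. The titles also give the lymph node arrays of 1 replicate number a shared code, 1 code for each number across genotypes and cell states, without saying what it stands for.

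In resident DC1 the loss of Batf3 came with lower transcripts of 11 cDC1 identity genes, the Fc receptor genes Fcrla and Fcgr2b, the lipid genes Elovl6 and Lipa and the integrin Itga8. Higher transcripts were called for 4 lectin and killer receptor genes, the uptake receptor Timd4, 4 guanylate-binding proteins, the chemokines Ccl17, Ccl22 and Cx3cl1 and the chemokine receptor Ccr7, while the lectin Clec12a and the chemokine Ccl2 were called lower. Of 11931 genes tested, 220 were called at an adjusted p under 0.05 (1.84%), 101 higher (0.847%) and 119 lower (0.997%). At least 2-fold changes were found for 68 of the higher and 69 of the lower genes, and the median difference over all genes tested was -0.01. In each of the 220 the 3 Batf3-/- arrays lay on one side of the 3 WT arrays, so lack of overlap in a called gene adds no support to its call. Over all genes tested, every Batf3-/- array lay above every WT array for 8.61% and below for 11.2%. The unadjusted limma p was under 0.05 for 1146 of the 11931 genes. Leaving out 1 resident array gave between 95 (without WT replicate 2) and 177 (without Batf3-/- replicate 3) calls, with 99 without WT replicate 3, 117 without Batf3-/- replicate 1, 128 without Batf3-/- replicate 2 and 158 without WT replicate 1. Calls held in each of these 6 fits for 86 of the 220 genes.

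**Figure D1:**
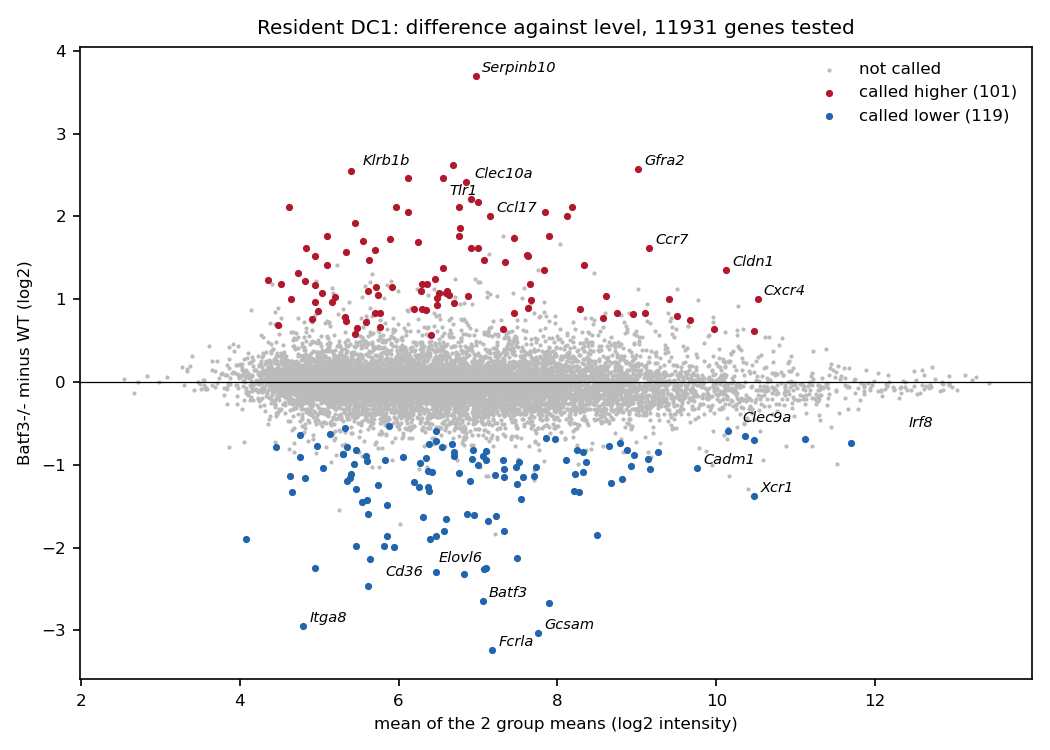
Difference in log2 intensity (Batf3-/- minus WT, y axis) against the mean of both group means (log2 intensity, x axis) for 11931 genes tested in resident DC1. Grey points are genes not called, red and blue points the 101 higher and 119 lower genes, and Batf3, Gcsam, Fcrla and Serpinb10 lie at the edges while Irf8 sits at -0.14.

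The 3 largest decreases were in Fcrla, Gcsam and Itga8. Fcrla, an Fc receptor-like protein kept inside the cell, stood at 8.59, 8.97 and 8.84 in WT cells and at 6.79, 4.95 and 4.92 in Batf3-/- cells, a difference of -3.24 ± 0.44 (limma adjusted p = 0.00149). Gcsam, a signalling adaptor known from germinal centre B cells, stood at 8.98, 9.46 and 9.39 against 6.08, 6.20 and 6.43, a difference of -3.03 ± 0.17 (limma adjusted p = 5.59e-06). Itga8, the integrin alpha 8 subunit, stood at 6.51, 5.75 and 6.56 against 3.47, 3.20 and 3.30, a difference of -2.95 ± 0.19 (limma adjusted p = 7.87e-06). None of these overlapped between the groups, and for Itga8 all Batf3-/- values lay under the filter level, where signal near the floor cannot be told from absence.

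Serpinb10, an intracellular serine protease inhibitor, had the largest increase. It stood at 4.48, 5.50 and 5.37 in WT cells and at 9.06, 9.13 and 8.26 in Batf3-/- cells, 13.0-fold higher (limma log2 difference 3.70 ± 0.28, adjusted p = 2.53e-05). Plaur, the urokinase receptor on the cell surface, stood at 5.81, 5.23 and 5.08 against 8.83, 8.61 and 6.54, a difference of 2.62 ± 0.51 (limma adjusted p = 0.0198). Its Batf3-/- values were spread over more than 2 log2 units, and its call was lost in 4 of the 6 leave-one-out fits, with adjusted p up to 0.105 without WT replicate 3. The other 25 tested members of the list of serpins, urokinase system genes and proteases were not called. The called share was 7.41% beside 1.84% among all genes tested, and the list's median was 0.10.

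Promoter windows of these genes are shown because BATF3 with JUN proteins reads the AP-1 core TGANTCA, and with IRF8 a composite of this core with GAAA. Each window runs from 250 bases before to 50 bases after the transcription start (RefSeq, GRCm38.p6), 5′ to 3′ on the gene's strand, and capitals mark a TGANTCA core found on either strand. Fcrla lies on the minus strand (chr1:170927534-170927833) and Gcsam on the plus strand (chr16:45610190-45610489), and neither window holds the core. Serpinb10 (plus strand, chr1:107528753-107529052) has a core starting 54 bases before the start, with GAAA within 4 bases of it, and Plaur (plus strand, chr7:24462233-24462532) one starting 69 bases before the start without GAAA that near.
Fcrla: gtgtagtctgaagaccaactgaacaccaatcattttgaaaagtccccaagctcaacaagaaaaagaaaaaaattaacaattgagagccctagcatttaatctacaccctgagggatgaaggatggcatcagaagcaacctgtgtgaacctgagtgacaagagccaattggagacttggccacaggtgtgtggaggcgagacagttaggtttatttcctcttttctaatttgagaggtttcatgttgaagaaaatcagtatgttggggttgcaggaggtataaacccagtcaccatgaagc
Gcsam: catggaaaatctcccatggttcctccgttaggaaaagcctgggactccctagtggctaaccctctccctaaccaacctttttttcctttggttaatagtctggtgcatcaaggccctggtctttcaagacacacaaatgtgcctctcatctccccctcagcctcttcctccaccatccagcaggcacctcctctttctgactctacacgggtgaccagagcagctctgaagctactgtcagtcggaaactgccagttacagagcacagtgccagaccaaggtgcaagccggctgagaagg
Serpinb10: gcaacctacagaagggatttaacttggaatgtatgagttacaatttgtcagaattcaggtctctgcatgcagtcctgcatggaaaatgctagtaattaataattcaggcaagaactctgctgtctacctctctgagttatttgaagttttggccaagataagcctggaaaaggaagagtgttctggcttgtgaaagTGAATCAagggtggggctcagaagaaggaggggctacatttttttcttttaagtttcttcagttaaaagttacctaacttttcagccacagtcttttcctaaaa
Plaur: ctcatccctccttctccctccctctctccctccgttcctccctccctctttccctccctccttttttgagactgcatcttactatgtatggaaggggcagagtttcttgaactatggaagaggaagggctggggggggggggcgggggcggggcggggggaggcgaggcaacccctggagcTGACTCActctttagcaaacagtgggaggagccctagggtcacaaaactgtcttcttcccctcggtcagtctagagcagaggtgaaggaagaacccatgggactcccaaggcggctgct

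The windows of Itga8 and Klrb1b, the other genes looked at by the same rule, hold no core. Over all called genes with a window, 7 of 125 windows of lower genes (5.6%) and 11 of 101 windows of higher genes (10.9%) hold TGANTCA. The share was 5.27% over the windows of tested genes and 7.81% over all 32851 windows. The composite stood in the windows of 3 higher genes, Serpinb10, Notch4 and Spint1 (2.97% of higher windows), in 0 of the lower windows and in 0.507% of the windows of tested genes. These matches describe letters in a window and not binding.

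**Figure D2:**
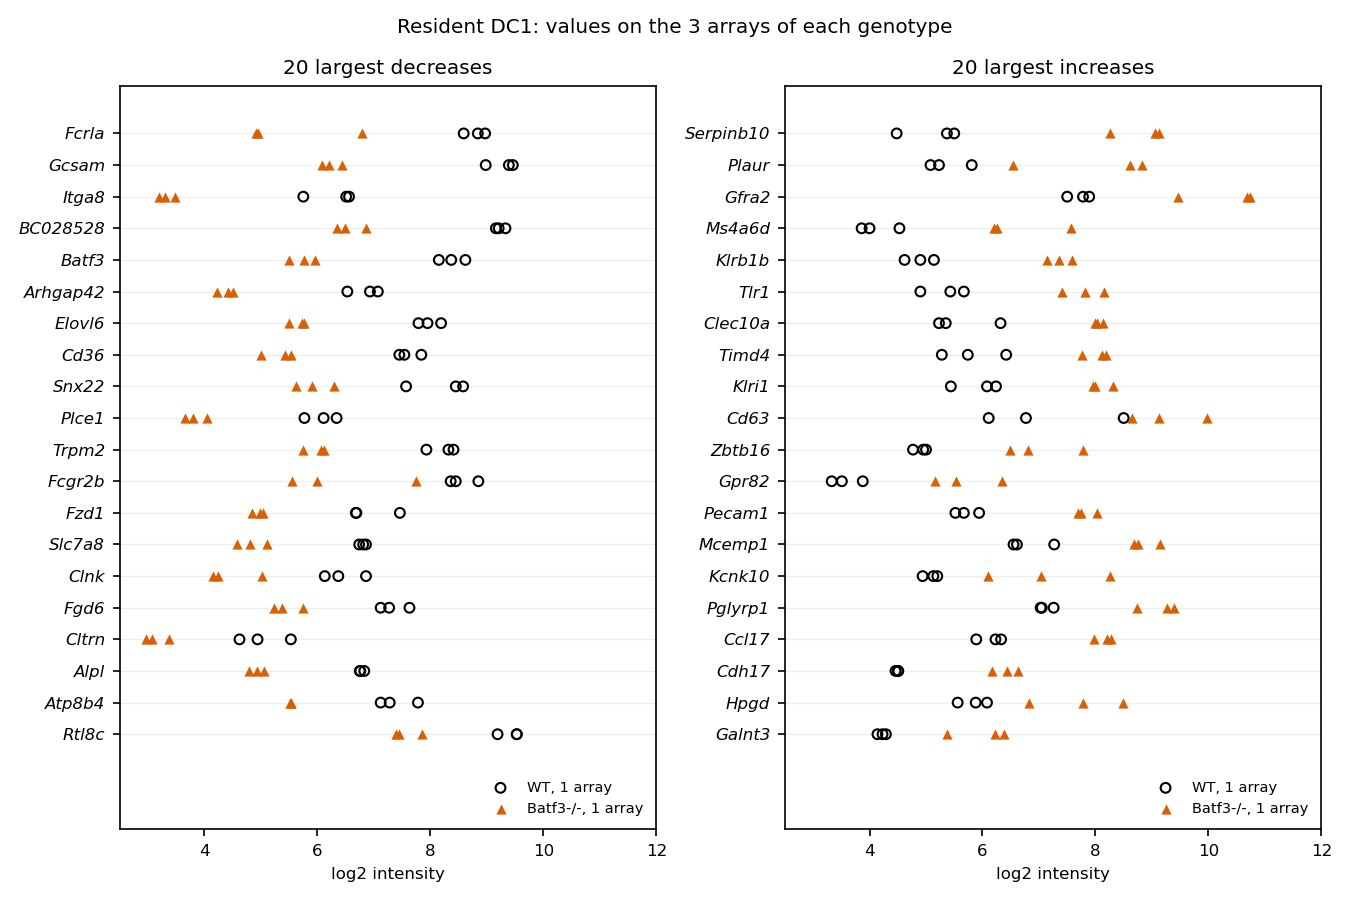
Log2 intensity (x axis) on each of the 3 WT arrays (open circles) and the 3 Batf3-/- arrays (triangles) of resident DC1 for the 20 largest decreases and the 20 largest increases (y axis, genes by size of difference). The groups lie apart for every gene drawn, most narrowly for Cd63, where WT replicate 1 stood at 8.50 and the lowest Batf3-/- array at 8.64.

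Genes that define cDC1 went down in part. Of 39 cDC1 identity genes tested, 0 were called higher and 11 lower, 28.2% of the list beside 0.997% lower among all genes tested, and the list's median was -0.45. Members of the list were chosen with earlier results of these data known, and they include Batf3, the deleted gene, so these shares are not a test. The lower genes were Gcsam, Batf3, Cd36, Snx22, Clnk, Pdia5, Xcr1, Septin3, Mycl, Plpp1 and Cadm1. Between 9 and 11 were called lower in each leave-one-out fit, and the median over all 39 ranged from -0.61 without Batf3-/- replicate 1 to -0.30 without Batf3-/- replicate 3. Averaged over the list, WT arrays stood at 9.34 to 9.52 and Batf3-/- arrays at 8.70 to 8.81.

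Xcr1, the chemokine receptor that marks DC1 and binds XCL1 from CD8 T cells and NK cells, stood at 11.05, 11.09 and 11.34 in WT cells and at 9.63, 9.53 and 10.20 in Batf3-/- cells. It was 2.60-fold lower (limma log2 difference -1.38 ± 0.21, adjusted p = 0.00409) but stayed well up in the range of the array. Cadm1, an adhesion molecule and another surface marker of cDC1, fell from 10.39, 10.29 and 10.15 to 9.12, 9.31 and 9.28 (-1.04 ± 0.14, limma adjusted p = 0.00149). Clnk, an adaptor of immune receptor signalling, stood at 6.13, 6.86 and 6.37 in WT cells against 4.24, 4.15 and 5.01, a difference of -1.98 ± 0.23 (limma adjusted p = 0.000477). None of these genes overlapped between the groups, as was so for every called gene, and each kept its call in all 6 leave-one-out fits.

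Snx22, a sorting nexin, fell by 2.26, and Pdia5, a protein disulfide isomerase, fell by 1.41, from 7.96, 8.41 and 8.37 to 6.91, 6.87 and 6.72. Mycl, the MYC paralog that DC1 express in place of Myc, stood at 8.51, 8.97 and 8.86 against 7.77, 8.06 and 7.18 (-1.11 ± 0.23, limma adjusted p = 0.0256). Its call and that of Plpp1 (-1.08 ± 0.20, limma adjusted p = 0.0159), a lipid phosphatase, were lost in 4 and 5 of the 6 leave-one-out fits, with adjusted p up to 0.138 and 0.0954, both without WT replicate 2.

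The other 28 genes were not called. Over the whole list, every Batf3-/- array lay below every WT array for 21 of the 39 genes and above for 2, beside 11.2% below and 8.61% above among all genes tested. Clec9a, the receptor by which DC1 sense actin filaments of dead cells, stood at 10.35, 10.32 and 10.47 in WT and 10.10, 10.06 and 10.19 in Batf3-/- cells (-0.26 ± 0.18, limma adjusted p = 0.828). Cd8a, Btla, Id2 and Cst3 differed by 0.05, 0.06, 0.08 and 0.06. Tlr3, the endosomal receptor for double-stranded RNA, differed by -0.59 ± 0.22 and Naaa, a lysosomal lipid amidase, by -0.99 ± 0.41, and neither was called (limma adjusted p = 0.323 and 0.42). The values of Naaa were 11.90, 12.09 and 12.03 against 10.88, 11.15 and 11.02, with no overlap. Its WT migratory arrays, which enter the same estimate of spread, stood at 5.47 and 7.73.

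Relatives and partners of BATF3 were not called. Of 23 BATF, AP-1 and IRF genes tested, 1 was called lower, Batf3 itself (4.35% beside 1.84% among all genes tested), and the median was 0.09. Batf2, a paralog that can take the place of BATF3 in inflamed animals, stood at 5.17, 5.30 and 5.02 against 5.61, 5.55 and 5.47, a difference of 0.38 ± 0.14 (limma adjusted p = 0.343). Batf differed by 0.05 ± 0.15. Of 35 DC lineage transcription factors tested, Mycl was called lower and Tbx21 higher (5.71% beside 1.84% among all genes tested), with a median of 0.15.

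**Figure D3:**
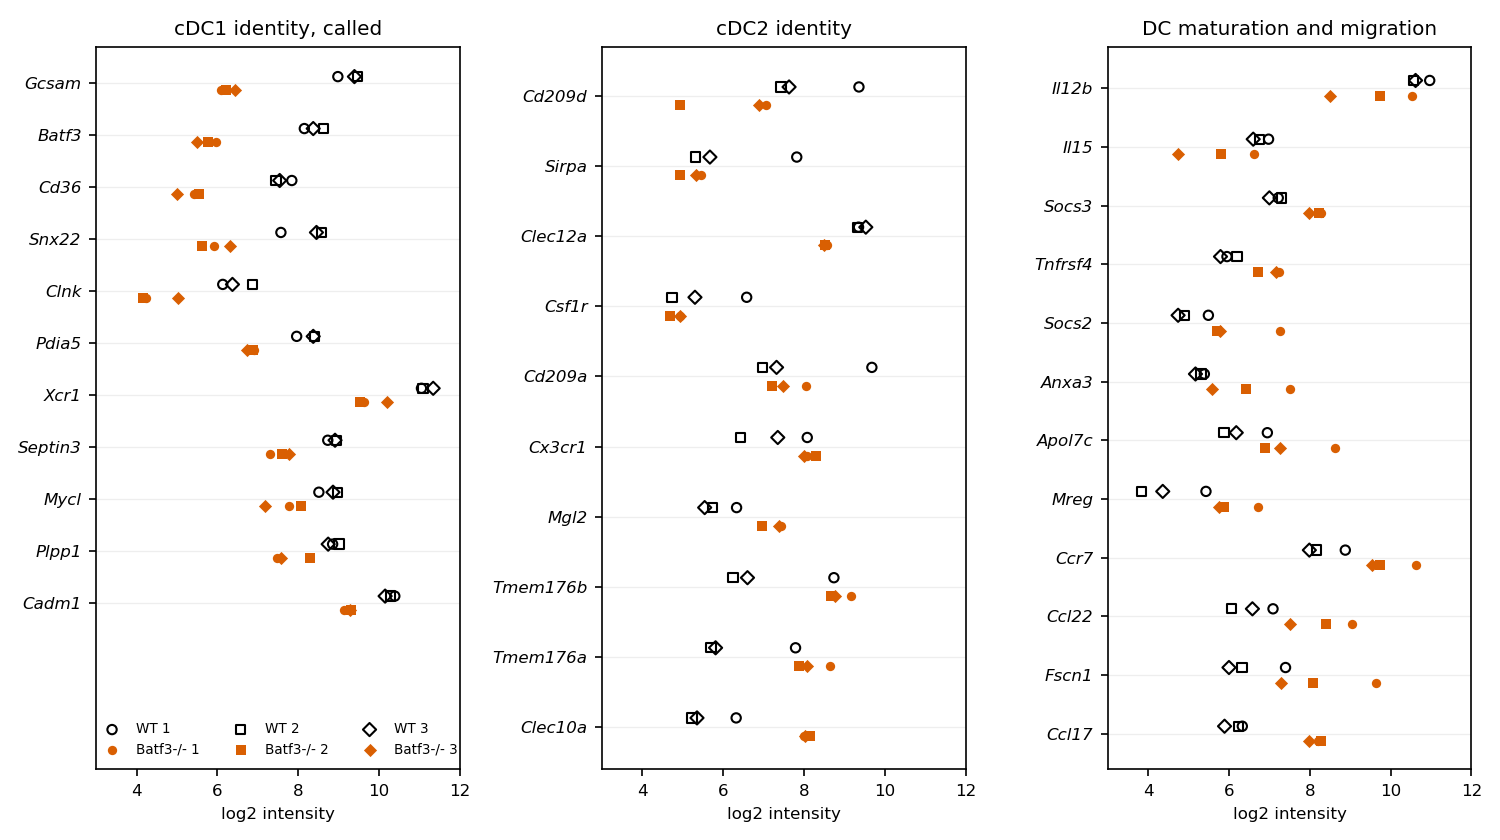
Log2 intensity (x axis) on each resident array, with WT as open and Batf3-/- as filled symbols and shape giving the replicate number, for the 11 called cDC1 identity genes and for chosen cDC2 and maturation genes (y axis). WT replicate 1 stands at 7.82 for Sirpa, and Batf3-/- replicate 1 stands at 9.65 for Fscn1.

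Among cDC2 genes the picture was mixed. Of 25 tested, 3 were called higher and 1 lower, and the list's median was 0.08. Clec10a and Mgl2 encode the lectins CD301a and CD301b, which bind galactose-type sugars. Clec10a rose from 6.32, 5.23 and 5.35 to 8.00, 8.14 and 8.03 (2.42 ± 0.28, limma adjusted p = 0.0004), and Mgl2 from 6.33, 5.74 and 5.54 to 7.43, 6.95 and 7.37 (1.38 ± 0.20, limma adjusted p = 0.00219). Both were higher on WT replicate 1 than on the other WT arrays and were still called without it. Tbx21, the transcription factor T-bet, stood at 5.21, 4.92 and 4.78 against 5.63, 5.57 and 5.92 (0.74 ± 0.14, limma adjusted p = 0.0201), and its call was lost in 4 leave-one-out fits, with adjusted p up to 0.124 without WT replicate 3. Clec12a, an inhibitory lectin that senses dead cells, fell from 9.35, 9.32 and 9.53 to 8.56, 8.51 and 8.49 (-0.88 ± 0.15, limma adjusted p = 0.00777), a call lost without WT replicate 3 (adjusted p = 0.0642).

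Without WT replicate 1, the array with the highest Sirpa, 6 of the 25 cDC2 genes were called higher and 1 lower. That fit called 73 higher and 85 lower of all 11931 genes tested. Tmem176b, a membrane channel gene, stood at 8.74 on that array against 6.24 and 6.60 on the other WT arrays, and at 9.17, 8.66 and 8.76 in Batf3-/- cells (1.67 ± 0.47 over all arrays, limma adjusted p = 0.118, and 2.44 without that array, adjusted p = 6.85e-05). Cx3cr1, the fractalkine receptor, had 8.08 on that array, 6.43 and 7.35 on the other WT arrays, and 8.08, 8.29 and 7.99 in Batf3-/- cells (0.83 ± 0.31, limma adjusted p = 0.327, and 1.23 without that array, adjusted p = 0.0349). In both genes WT replicate 1 reached the Batf3-/- level. Sirpa, Csf1r and S100a4 stood in the Batf3-/- cells within or under the range of the WT arrays. The list's mean was 7.48 on WT replicate 1, 6.39 and 6.62 on the other WT arrays, and 6.76 to 7.14 on the Batf3-/- arrays. The part of other cells in these values was not tested.

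Lectins and receptors of the natural killer gene complex held some of the largest increases. Of 41 listed genes 17 were tested, and the others were under the filter. Of the 17, 4 were called higher (Klrb1b, Clec10a, Klri1 and Mgl2) and 1 lower (Clec12a), 29.4% beside 1.84% among all genes tested. In every leave-one-out fit 4 were called higher. Clec10a, Mgl2 and Clec12a are also among the called cDC2 genes above. Klrb1b, an inhibitory receptor for the lectin CLEC2D, rose from 5.14, 4.90 and 4.62 to 7.59, 7.36 and 7.14 (2.47 ± 0.18, limma adjusted p = 1.55e-05). Klri1, a killer lectin-like receptor, rose from 6.24, 5.44 and 6.08 to 8.00, 8.32 and 7.95 (2.17 ± 0.24, limma adjusted p = 0.000367). Neither gene overlapped between the groups. Of the 10 NK cell markers, 3 were tested and 0 called, and Ncr1, Klrb1c, Gzma, Gzmb and Eomes were under the filter.

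T cell markers were examined beside these genes. All 14 tested had a positive difference, and 0 were called by limma, while 1 had an unadjusted p under 0.05. The median was 0.47, and 0.23 without Batf3-/- replicate 3. Averaged over them, WT arrays stood at 5.49 to 5.64 and Batf3-/- arrays at 5.66, 5.93 and 6.21, and Cd3g reached 8.40 on Batf3-/- replicate 3. Zbtb16, which encodes PLZF, a factor of innate-like lymphocytes and myeloid precursors, stood at 4.95, 5.00 and 4.77 against 6.80, 7.78 and 6.49 (2.12 ± 0.40, limma adjusted p = 0.0178), highest on Batf3-/- replicate 2. Its call was lost in 4 leave-one-out fits, with adjusted p up to 0.0883 without WT replicate 3. Il21r, the receptor for the T cell cytokine IL-21, stood at 5.99, 5.16 and 5.04 against 7.37, 6.61 and 7.28 (1.69 ± 0.32, limma adjusted p = 0.0178), and was likewise lost in 4 fits, with adjusted p up to 0.102. The part of T cells in these values was not tested.

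Receptors for dead cells and lipids moved in both directions. Of 23 uptake and scavenger receptors tested, 3 were called higher and 1 lower, 17.4% beside 1.84% among all genes tested, with a median of 0.04. Timd4, the phosphatidylserine receptor TIM-4, rose from 6.42, 5.74 and 5.28 to 8.12, 8.19 and 7.76 (2.21 ± 0.27, limma adjusted p = 0.000669). Havcr1, which encodes TIM-1 and is a relative of TIM-4, rose from 3.99, 4.37 and 4.05 to 5.27, 5.06 and 5.08 (1.00 ± 0.15, limma adjusted p = 0.00406), from WT values under the filter level. Havcr1 passed the filter only through its Batf3-/- resident arrays. Cd36, a scavenger receptor for oxidised lipids and fatty acids, fell from 7.84, 7.45 and 7.54 to 5.42, 5.53 and 5.00 (-2.29 ± 0.28, limma adjusted p = 0.000681). The groups did not overlap for any of these 3 genes. Cd300lf, a lipid-binding receptor of the CD300 family, was higher by 1.03 ± 0.21 (limma adjusted p = 0.0256), a call lost in 5 leave-one-out fits with adjusted p up to 0.145 without WT replicate 2.

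Genes of fatty acid and lipid handling were called in the lower direction. Of 34 tested, 0 were higher and 4 lower (Elovl6, Cd36, Plpp1 and Lipa), 11.8% beside 1.84% among all genes tested, with a median of -0.09. Elovl6, the elongase that lengthens palmitate, fell from 8.19, 7.95 and 7.79 to 5.76, 5.73 and 5.49 (-2.32 ± 0.19, limma adjusted p = 3.11e-05). Lipa, the lysosomal acid lipase, fell from 8.08, 7.84 and 8.04 to 7.02, 7.03 and 6.83 (-1.03 ± 0.16, limma adjusted p = 0.00475). In both, the 3 values of a genotype lay close together and the groups were well apart. Of 19 cholesterol biosynthesis genes, 0 were called, and 0 had an unadjusted p under 0.05.

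Fc receptor genes were called lower where they were called. Of 8 tested, 0 were higher and 2 lower, Fcrla and Fcgr2b (25.0% beside 1.84% among all genes tested), with a median of -0.20. Fcgr2b, the inhibitory receptor for IgG, stood at 8.45, 8.85 and 8.36 in WT cells and at 7.74, 5.55 and 5.99 in Batf3-/- cells (-2.13 ± 0.47, limma adjusted p = 0.0402). Replicate 1 of the Batf3-/- arrays was the highest of its group for both Fcgr2b and Fcrla. The call of Fcgr2b was lost in 5 of 6 leave-one-out fits, with adjusted p up to 0.19 without WT replicate 2. It was kept without Batf3-/- replicate 1 (adjusted p = 0.00153), and Fcrla was called in all 6 fits.

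These genes were also set against the position of Batf3, since a knockout allele can carry flanking DNA of the strain it was made in. Fcrla and Fcgr2b lie next to each other on the chromosome of Batf3, 122 and 121 tested genes away. Of the 72 tested genes within 50 places on either side of Batf3, 0 were called, and of the 222 within 200 places, 2 were, Fcrla and Fcgr2b (0.901%). On the rest of that chromosome 11 of 465 were called (2.37%), Serpinb10, Cxcr4, Mreg and Fzd7 among them, beside 1.82% on the other chromosomes. The part of flanking DNA in the values of Fcrla and Fcgr2b was not tested.

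Some maturation and migration genes were higher in the Batf3-/- cells. Of 46 tested, 6 were called higher and 0 lower, 13.0% of the list beside 0.847% higher among all genes tested. This list's members were also chosen with earlier results of these data known, so the shares are not a test. The list's median was 0.39, with 39 positive differences, and a fit with the replicate number as a block called 9 higher and 0 lower. Ccl17, a chemokine that draws CCR4+ T cells, rose from 6.33, 6.23 and 5.89 to 8.20, 8.28 and 7.97 (2.0 ± 0.21, limma adjusted p = 0.000247), and was called in all 6 leave-one-out fits. Ccl22, which acts on the same receptor, stood at 7.09, 6.07 and 6.58 against 9.05, 8.40 and 7.51 (1.74 ± 0.35, limma adjusted p = 0.0261). Ccr7, the receptor that guides dendritic cells into and within the node, stood at 8.88, 8.16 and 7.99 against 10.63, 9.73 and 9.53 (1.62 ± 0.31, limma adjusted p = 0.0183). The groups did not overlap for these 3 genes.

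Mreg (1.57 ± 0.36, limma adjusted p = 0.045), a melanosome and lysosome regulator, Tnfrsf4 (1.07 ± 0.19, adjusted p = 0.0114), the receptor OX40, and Socs3 (0.99 ± 0.20, adjusted p = 0.0256), an inhibitor of cytokine signalling, completed the called members. Ccl22, Ccr7, Mreg, Tnfrsf4 and Socs3 each lost the call in between 2 and 5 leave-one-out fits, with adjusted p up to 0.221 for Mreg without WT replicate 2. Without Batf3-/- replicate 1, 1 member was called higher and 1 lower (Il15, -1.50, limma adjusted p = 0.0237) and the median was 0.22. Without WT replicate 3, 1 was called higher and 0 lower, and without WT replicate 2, 2 were called higher and 0 lower. Averaged over the list, WT arrays stood at 7.11, 6.79 and 6.77 and Batf3-/- arrays at 7.78, 7.24 and 7.09, and the mean was highest on replicate 1 within each genotype.

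Other members were not called. Fscn1, the actin-bundling protein of mature dendritic cells, stood at 7.40, 6.32 and 6.00 in WT cells and at 9.65, 8.07 and 7.28 in Batf3-/- cells (1.76 ± 0.56, limma adjusted p = 0.19). Between arrays of the same replicate number it differed by 2.25, 1.75 and 1.28, and with that number as a block it was called (limma adjusted p = 0.0173). Il12b, a subunit of IL-12, went the other way, at 10.97, 10.57 and 10.62 against 10.52, 9.75 and 8.51 (-1.13 ± 0.41, limma adjusted p = 0.304), lowest on Batf3-/- replicate 3, without which the difference was -0.59. Il15, a cytokine that sustains CD8 T and NK cells, stood at 6.98, 6.75 and 6.60 against 6.63, 5.80 and 4.75 (-1.05 ± 0.35, limma adjusted p = 0.224), and without Batf3-/- replicate 3 the difference was -0.56. Costimulatory Cd40, Cd80 and Cd86 differed by 0.45, 0.57 and -0.32.

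Because migratory DC1 of the same nodes carry these genes at higher levels, the levels of WT migratory arrays were set beside them. The mean of the maturation list was 8.99 and 9.14 on the 2 WT migratory arrays. Cd63, Ccr7, Tnfrsf4, Ccl22 and Il21r averaged 12.39, 11.69, 10.40, 9.77 and 9.50 there, and in resident cells they were called higher, with differences of 2.12, 1.62, 1.07, 1.74 and 1.69. Ccl5, Socs2 and Il15 averaged 10.72, 10.46 and 10.26, and in resident cells their differences were 0.68, 1.21 and -1.05, none of them called. Samsn1 and Cd200, at 10.68 and 8.26 in WT migratory cells, differed by 0.01 and -0.54 in resident cells and were not called. The part of migratory cells in the resident gate was not tested.

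Chemokine and lipid receptors changed in both directions. Of 23 tested, Ccr7 and Cxcr4 were called higher and Xcr1, Gpr34 and Lpar6 lower, with a median of 0.19. The called share was 21.7% beside 1.84% among all genes tested. Cxcr4, the receptor for the stromal chemokine CXCL12, stood at 10.39, 9.96 and 9.70 against 11.16, 11.14 and 10.74 (1.00 ± 0.19, limma adjusted p = 0.0183), with WT replicate 1 the highest of its group. The receptors for lysophospholipids Gpr34 (-1.16 ± 0.26, limma adjusted p = 0.0458) and Lpar6 (-1.15 ± 0.22, adjusted p = 0.0203) were lower. Calls of Cxcr4, Gpr34 and Lpar6 were lost in 4, 5 and 5 leave-one-out fits, with adjusted p up to 0.102 for Cxcr4 and 0.111 for Lpar6 without WT replicate 3 and up to 0.23 for Gpr34 without WT replicate 2.

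Of 21 chemokine genes, Ccl17, Ccl22 and Cx3cl1 were called higher and Ccl2 lower (19.0% beside 1.84% among all genes tested), with a median of 0.14. Cx3cl1, the membrane-bound ligand of CX3CR1, stood at 5.14, 5.31 and 4.96 against 6.46, 6.59 and 5.83 (1.15 ± 0.25, limma adjusted p = 0.0396). Ccl2, which draws CCR2+ monocytes, stood at 8.39, 8.45 and 7.48 against 7.13, 7.05 and 6.47 (-1.23 ± 0.25, limma adjusted p = 0.0292), and replicate 3 was the lowest in both genotypes. Each lost its call in 5 leave-one-out fits, with adjusted p up to 0.198 for Cx3cl1 without WT replicate 3 and up to 0.159 for Ccl2 without WT replicate 2. Of 41 cytokine and cytokine receptor genes, Il21r was called higher and Tgfbi lower (4.88% beside 1.84% among all genes tested). Tgfbi, a matrix protein induced by TGF-beta, fell from 8.11, 8.20 and 8.12 to 7.22, 7.17 and 6.58 (-1.15 ± 0.18, limma adjusted p = 0.00479).

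Of 19 Toll-like receptors and adaptors tested, 1 was called, 5.26% beside 1.84% among all genes tested. This gene was Tlr1, the partner of TLR2 in sensing triacylated lipopeptides. It rose from 5.67, 4.90 and 5.43 to 7.40, 7.82 and 8.16 (2.46 ± 0.33, limma adjusted p = 0.00148), with no overlap. Pglyrp1, a secreted peptidoglycan recognition protein, rose from 7.03, 7.05 and 7.26 to 9.26, 9.39 and 8.73 (2.01 ± 0.18, limma adjusted p = 8.96e-05).

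Some guanylate-binding proteins, GTPases that attack vacuoles of microbes, were called higher. No type I interferon response gene was called, though most differed in the same direction. Of 14 guanylate-binding and IFI200 genes tested, 4 were called higher, Gbp3, Gbp4, Gbp5 and Gbp8, and 0 lower, with a median of 0.68. The called share was 28.6% beside 1.84% among all genes tested, and 12 had an unadjusted p under 0.05, beside 1146 of 11931 genes tested. Every Batf3-/- array lay above every WT array for 10 of them and below for 3, beside 8.61% above and 11.2% below among all genes tested. Gbp8 rose from 6.05, 6.12 and 6.38 to 8.12, 7.92 and 7.39 (1.62 ± 0.22, limma adjusted p = 0.00169) and Gbp5 stood at 5.89, 5.54 and 6.08 against 7.14, 7.30 and 6.79 (1.24 ± 0.22, limma adjusted p = 0.0114). Gbp8 was called in all 6 leave-one-out fits, and Gbp5, Gbp4 and Gbp3 lost the call in 3, 5 and 5, with adjusted p up to 0.246 for Gbp3 without WT replicate 2. Between 1 and 3 members were called in these fits, with 1 call without WT replicate 2, without Batf3-/- replicate 1 or without Batf3-/- replicate 2, and 2 without WT replicate 3. Ifi205 and Ifi203, sensors of the IFI200 family, differed by -0.94 each and were not called. The list pools guanylate-binding and IFI200 genes, with 11 positive and 3 negative differences. Of 20 type I interferon response genes, 0 were called by limma and 4 had an unadjusted p under 0.05. A positive difference was seen for 18 and a negative one for 2, and the median was 0.17. The Gbp genes are near copies of each other, and cross-hybridisation between them cannot be told apart here.

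Of the Ms4a genes, a cluster of tetraspan membrane proteins, 2 were called higher and 0 lower. The array holds 14 of the list's genes, and 7 were tested, so the called share was 28.6% beside 1.84% among all genes tested. The other 7, Ms4a2, Ms4a3, Ms4a4a, Ms4a4b, Ms4a4d, Ms4a5 and Ms4a7, were under the filter in both genotypes. The median of the 7 tested was 1.13, but Ms4a6d passed the filter only through its Batf3-/- resident arrays, so this median depends in part on the filter. Ms4a6d rose from 4.0, 4.53 and 3.86 to 6.25, 6.21 and 7.57 (2.55 ± 0.32, limma adjusted p = 0.000885), from WT values under the filter level. Ms4a4c stood at 6.98, 5.55 and 5.78 against 7.53, 7.34 and 8.30 (1.62 ± 0.35, limma adjusted p = 0.0353), with the highest WT value on replicate 1. Its call was lost in 5 leave-one-out fits, with adjusted p up to 0.194 without WT replicate 2, so that Ms4a6d alone was called there. Ms4a6c, at 9.58, 8.67 and 8.57 against 9.94, 9.94 and 10.34, differed by 1.13 ± 0.38 (limma adjusted p = 0.236). Several of these genes are near copies of each other.

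Adhesion genes were also divided. Of 26 junction and adhesion genes tested, 4 were called higher (Cd63, Pecam1, Cdh17 and Cldn1) and 2 lower (Cadm1 and Cd81), with a median of 0.12. The called share was 23.1% beside 1.84% among all genes tested. Pecam1, the adhesion molecule CD31, rose from 5.94, 5.67 and 5.52 to 7.74, 8.03 and 7.69 (2.11 ± 0.20, limma adjusted p = 0.000148). Cdh17, a cadherin of gut epithelium, rose from 4.46, 4.51 and 4.50 to 6.63, 6.44 and 6.16 (1.92 ± 0.20, limma adjusted p = 0.000247). Cldn1, a tight junction protein that skin dendritic cells also carry, was already bright and rose from 9.60, 9.46 and 9.29 to 11.00, 10.64 and 10.76 (1.35 ± 0.19, limma adjusted p = 0.00231). The groups were apart for all 3, and their calls held in the 6 leave-one-out fits.

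Stromal and endothelial markers were examined beside Pecam1. Of 9 tested, Pecam1 was the 1 gene called (11.1% beside 1.84% among all genes tested). The list's median was 0.00, and Cdh5, Kdr, Emcn and Madcam1 were under the filter. Of the 4 Langerhans cell and migratory cDC2 markers tested, Cldn1 and Mgl2 were called higher, while Cd209a and Pdlim4 differed by -0.42 and -0.50 and Cd207, Epcam and Cdh1 were under the filter. Cd63, a tetraspanin of late endosomes, stood at 8.50, 6.77 and 6.11 against 9.97, 8.64 and 9.12 (2.12 ± 0.48, limma adjusted p = 0.0436), and its call was lost in 5 leave-one-out fits, with adjusted p up to 0.204 without WT replicate 2. Cd81, another tetraspanin, was lower by 0.85, with values of 9.97, 9.56 and 9.54 against 8.76, 8.84 and 8.91 (limma adjusted p = 0.0203), a call lost in 5 fits with adjusted p up to 0.0942 without WT replicate 1.

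Antigen presentation genes were not called. Of 17 MHC class II, 18 MHC class I and 22 cross-presentation and phagosome genes tested, 0 were called by limma. An unadjusted p under 0.05 was seen for 4, 1 and 3, beside 1146 of all 11931 genes tested, and the medians were 0.02, -0.07 and -0.03. Of 31 costimulatory and coinhibitory genes, 1 was called lower, Vsir, 3.23% beside 1.84% among all genes tested. Vsir, the checkpoint protein VISTA, stood at 8.52, 8.69 and 8.75 against 7.93, 7.87 and 7.72 (-0.82 ± 0.18, limma adjusted p = 0.0436). Its call was lost in all 6 leave-one-out fits, with adjusted p from 0.0865 to 0.201. Of 36 cell cycle genes, 0 were called by limma, 31 had a negative difference, 3 had an unadjusted p under 0.05, and the median was -0.25, or -0.11 without Batf3-/- replicate 3 and -0.39 without Batf3-/- replicate 2. Plasmacytoid dendritic cell genes (17 tested), B cell markers (13 tested) and macrophage and monocyte markers (10 tested) had 0 calls by limma and medians of 0.07, 0.09 and 0.04, with 3, 0 and 0 at an unadjusted p under 0.05.

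**Figure D4:**
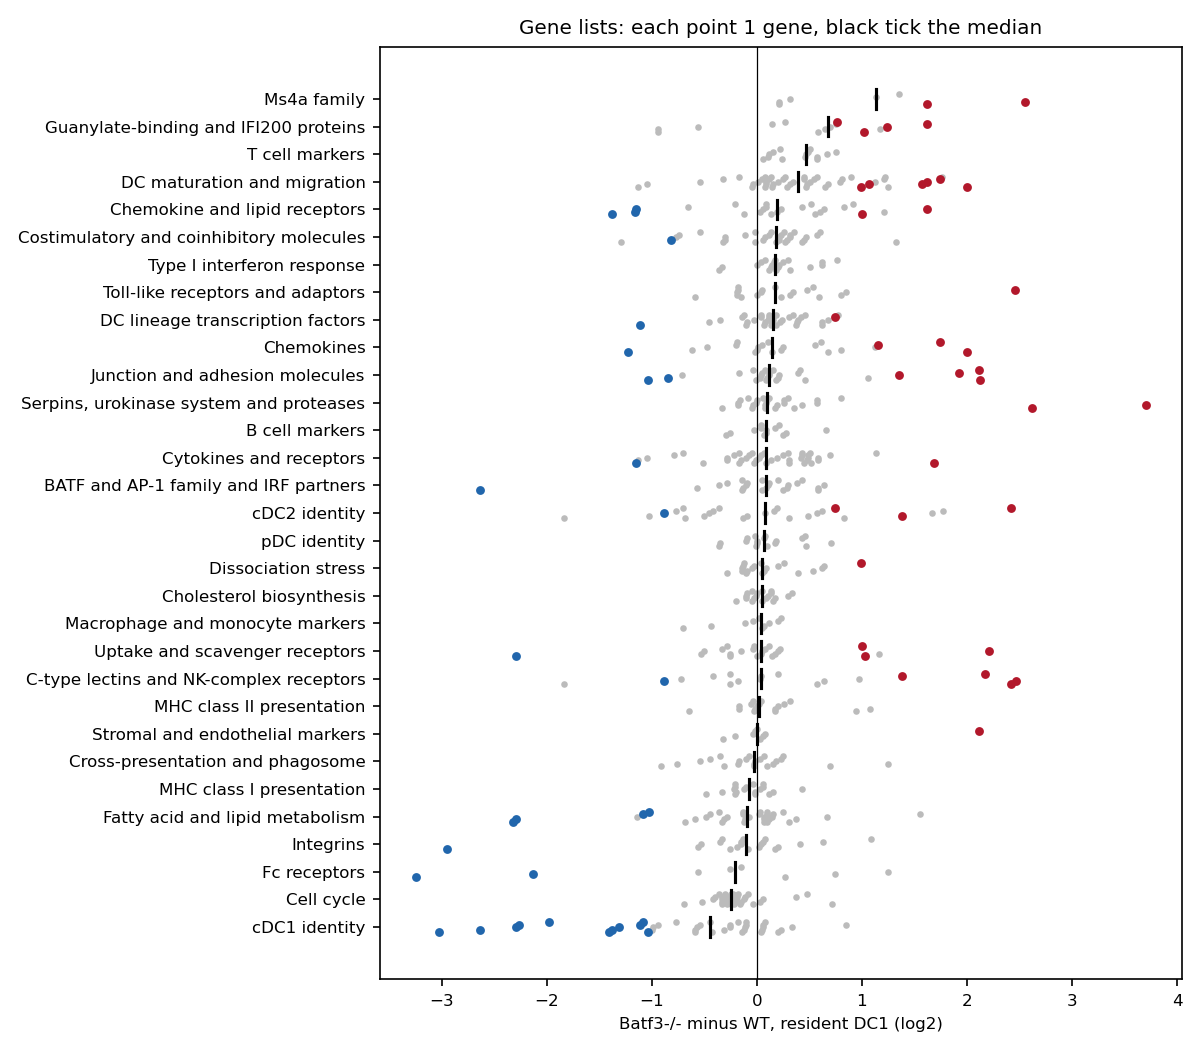
Difference in log2 intensity (Batf3-/- minus WT, x axis) in resident DC1 for the tested members of each gene list with 7 or more of them (y axis). Each point is 1 gene, red if called higher, blue if called lower and grey if not called, and the black tick is the list's median, which runs from -0.45 for cDC1 identity to 1.13 for the Ms4a family.

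Outside these lists, further large changes were in single genes of varied roles. Gfra2, the receptor for neurturin, rose from 7.78, 7.89 and 7.50 to 10.73, 10.69 and 9.46 (2.57 ± 0.32, limma adjusted p = 0.00079). Mcemp1, a membrane protein of mast cells and myeloid cells, rose from 7.27, 6.55 and 6.61 to 9.15, 8.75 and 8.69 (2.06 ± 0.22, limma adjusted p = 0.000247). Gpr82, an orphan receptor, rose by 2.11 ± 0.26 from WT values of 3.33 to 3.88 (limma adjusted p = 0.000783), and Galnt3, which starts O-glycan chains, by 1.77 ± 0.21 (limma adjusted p = 0.000489). These 4 genes did not overlap between the groups and were called in all 6 leave-one-out fits. Gpr82 and Galnt3 (4.14, 4.29 and 4.23 in WT cells) passed the filter only through their Batf3-/- resident arrays. Kcnk10, a potassium channel, and Hpgd, which breaks down prostaglandins, were higher by 2.05 ± 0.38 and 1.86 ± 0.39 (limma adjusted p = 0.0173 and 0.0294), and lost the call in 3 and 5 fits, with adjusted p up to 0.0876 without WT replicate 2 and 0.15 without WT replicate 3.

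Several of the 20 largest decreases were in genes outside the lists. Arhgap42, a GTPase-activating protein for RHOA, fell from 6.93, 7.07 and 6.53 to 4.41, 4.22 and 4.51 (-2.46 ± 0.20, limma adjusted p = 3.11e-05). Fgd6, an exchange factor for CDC42, fell from 7.12, 7.63 and 7.27 to 5.37, 5.74 and 5.23 (-1.89 ± 0.21, limma adjusted p = 0.000334). Plce1, a phospholipase C that answers to RAS, fell from 6.34, 5.77 and 6.11 to 3.65, 3.79 and 4.05 (-2.24 ± 0.18, limma adjusted p = 2.53e-05). Atp8b4, a phospholipid flippase, had the same 5.54, 5.54 and 5.52 on the Batf3-/- arrays against 7.12, 7.78 and 7.28 in WT cells (-1.86 ± 0.18, limma adjusted p = 0.000165).

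Trpm2, a calcium channel that answers to oxidative stress, fell from 7.93, 8.41 and 8.32 to 6.12, 6.07 and 5.74 (-2.24 ± 0.19, limma adjusted p = 3.7e-05). Fzd1, a WNT receptor, fell from 6.69, 7.46 and 6.68 to 4.99, 4.84 and 5.03 (-1.99 ± 0.20, limma adjusted p = 0.000167). Slc7a8, an amino acid transporter, fell from 6.81, 6.74 and 6.86 to 4.80, 4.58 and 5.11 (-1.98 ± 0.15, limma adjusted p = 2.53e-05). Alpl, tissue-nonspecific alkaline phosphatase, fell from 6.83, 6.75 and 6.76 to 5.06, 4.93 and 4.78 (-1.86 ± 0.12, limma adjusted p = 7.87e-06). In each of them the WT and Batf3-/- values were apart by over 1 log2 unit. BC028528, Rtl8c and Cltrn were lower by 2.67 ± 0.27, 1.85 ± 0.23 and 1.89 ± 0.22 in size, with limma adjusted p = 0.000169, 0.000774 and 0.000509.

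Spleen DC1, which share no array with the lymph node cells, were compared by the same genotypes on another array type. Of the 220 genes, 209 were tested in spleen, and 203 of these (97.1%) had the same sign there, beside 61.4% of all 10035 genes tested in both. In spleen 95 of 12875 genes were called (0.738%), between 24 without WT replicate 3 and 149 without WT replicate 1 when 1 of the 6 arrays was left out. Both tissues called 52 genes, all 52 with the same sign, which is 24.9% of the resident calls tested in spleen and 59.8% of the 87 spleen calls tested in resident cells. Itga8 (-2.95 in resident cells and -3.30 in spleen), Arhgap42 (-2.46 and -2.57), Alpl (-1.86 and -2.38), Gfra2 (2.57 and 2.26), Mcemp1 (2.06 and 2.90), Cdh17 (1.92 and 2.81) and Cldn1 (1.35 and 2.73) were called in both. Xcr1, at -1.38 in resident cells, differed by -0.41 in spleen (limma adjusted p = 0.803). Spleen replicates 1 and 2 of each genotype were sorted on XCR1 itself as well as CD24, and replicate 3 on CD24 without XCR1. On replicates 1 and 2 Xcr1 stood at 9.98 and 11.43 in WT against 10.98 and 10.77 in Batf3-/- cells. On replicate 3 it stood at 10.56 against 8.99, with 1 array per genotype. The difference between the tissues was not tested, since their tables were normalized separately.

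Migratory DC1 of the same nodes showed another response for some of the genes. The difference between the Batf3 effects, migratory minus resident, was called for 148 of 11931 genes (1.24%), 56 of them among the 220, and in 33 of these 56 the signs were opposite. This contrast subtracts the resident difference by which the 220 were chosen. Called differences against the resident sign are therefore favoured among them. By sign alone 159 of the 220 (72.3%) agreed in migratory cells, beside 53.8% of all genes tested. In migratory cells 1123 genes were called (9.41%), 851 higher and 272 lower. Of the 220, 40 were among them, 37 with the same sign. There were 2 WT migratory arrays. Without 1 of the 5 migratory arrays the 1123 calls became 109 (without WT replicate 1), 224 and 242 (without Batf3-/- replicates 1 and 2), 1301 (without WT replicate 2) or 3570 (without Batf3-/- replicate 3). Leaving out any 1 of the 11 lymph node arrays moved the 148 called differences by over 1.5 times, from 17 without resident WT replicate 2 to 1713 without migratory Batf3-/- replicate 3.

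Batf3 fell in both, by 2.64 in resident and 3.17 in migratory cells. Klrb1b (2.47 in resident and -0.39 in migratory cells), Tlr1 (2.46 and -0.45), Pecam1 (2.11 and -0.46) and Clec10a (2.42 and 0.14) were called higher in resident cells, and their differences of -2.87, -2.91, -2.57 and -2.29 were called (limma adjusted p = 0.00074, 0.021, 0.0039 and 0.03). Elovl6 (-2.32 and 0.10), Itga8 (-2.95 and -0.44) and Alpl (-1.86 and 0.09) fell in resident cells, with differences of 2.41, 2.51 and 1.95 (limma adjusted p = 0.0035, 0.0035 and 0.00074). Irf8 was 1.24 higher in migratory Batf3-/- cells and differed by -0.14 in resident cells, a difference of 1.38 (limma adjusted p = 0.04). It stood at 10.46 and 10.97 on the WT migratory arrays and at 12.37, 11.95 and 11.54 on the Batf3-/- ones. The SD of all log2 values was 1.962 and 2.034 on these WT arrays and 2.158, 2.152 and 2.074 on the Batf3-/- ones. With this spread as a term in the fit, 30 differences were called in place of 148. For Xcr1, Cadm1 and Cldn1 the difference between the cell types was not called, at -0.47, -0.13 and -0.05.

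**Figure D5:**
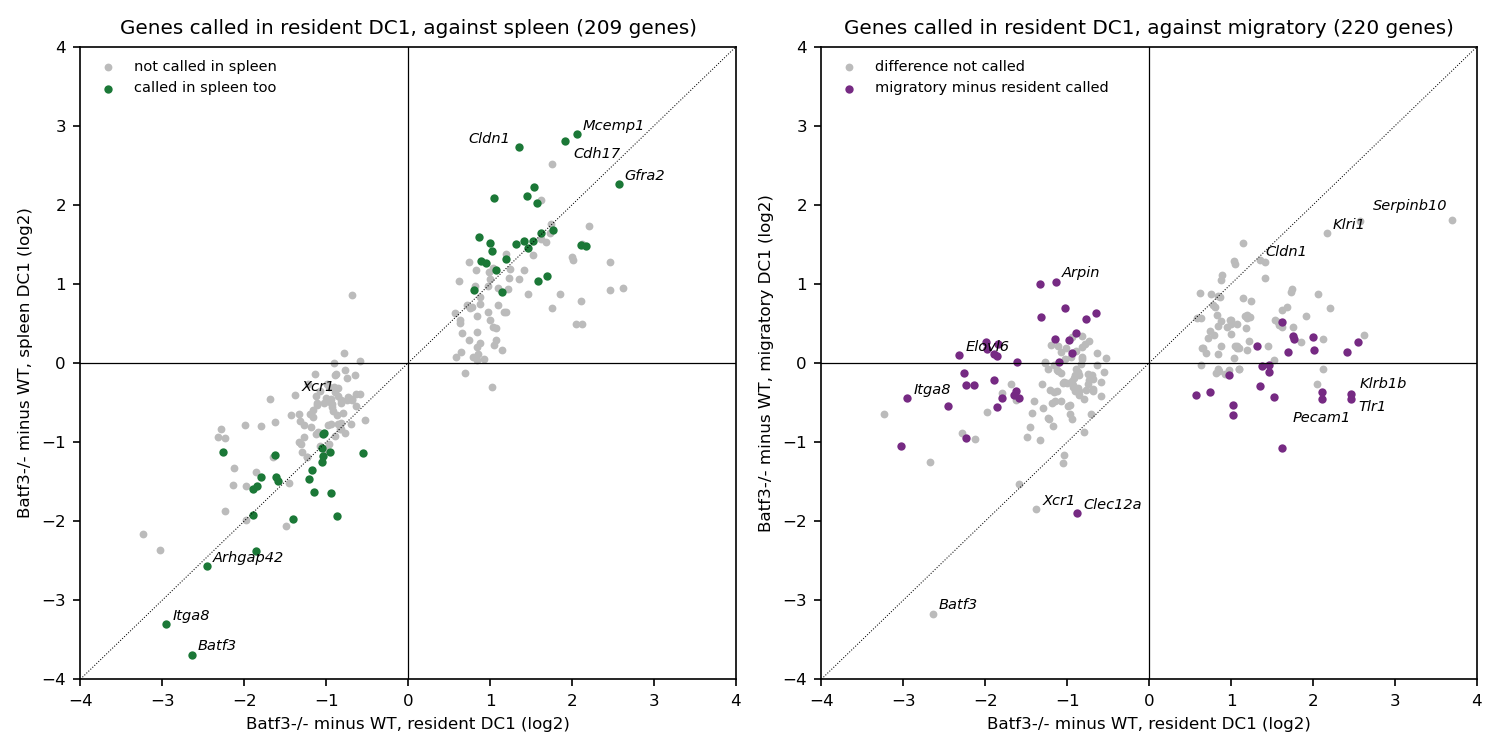
Difference (Batf3-/- minus WT, log2) in spleen DC1 (left, y axis, 209 genes) and migratory DC1 (right, y axis, 220 genes) against that in resident DC1 (x axis) for genes called in resident DC1, with a dotted line at equal values. Green points were also called in spleen, purple points had a called difference between migratory and resident cells, and 203 of the 209 points on the left have the same sign on both axes.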

How the data were processed

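RNA of sorted DC1 was isolated with an RNAqueous-Micro kit and prepared for the arrays with a GeneChip WT Pico kit, per the labels' protocols. The lymph node values were deposited on a log2 scale (1.35 to 13.96), and the spleen values were deposited as linear intensities, turned to log2 here. RMA is the tool named in the submitters' processing notes, with no version given in the sources used here. It evens out the arrays and compresses differences near the floor. No measure of background per probe was used, and precision is limited by the number of arrays.

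Of 35556 lymph node probe sets, 21789 had 1 symbol, 1621 several and 12146 were unnamed here; 21698 matched a RefSeq gene identifier. For each of the 19938 named genes the brightest probe set on average was kept. Genes entered the test if 2 or more arrays were at or above 4.82, the median of all values. Ms4a6d, Gpr82, Galnt3 and Havcr1 passed only through their Batf3-/- resident arrays. Itga8, Plce1, Cltrn, Gpr34 and Slc7a8 would not have passed without their WT resident arrays. Fits were made in R 4.3.3 with limma 3.58.1 (lmFit, contrasts.fit and eBayes, with a trend of variance on mean) on all 11 lymph node arrays, or all 8 spleen arrays with the sort gate as a term, with Benjamini-Hochberg adjustment and a threshold of 0.05. Each ± is the standard error of the fit. The script was tested on simulated data. A leave-one-out fit leaves out 1 resident array.

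The text names Batf3, Irf8, genes of the gate, the 20 largest called changes in each direction (leaving out predicted genes, Rik, miRNA and snoRNA symbols and antigen receptor segments) and called members of each list, with the lists' members chosen with earlier results of these data known; other genes were chosen after their values were seen. No list was tested as a set. Alternatives covered filters, normalization, centring, array weights, the spread of array values, the arrays in the fit, the replicate number as a block and single arrays left out.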

Additional observations from a re-analysis of the deposited data

Results flagged for a closer look

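For 32 of the named genes the Batf3 effect differed between migratory and resident DC1 in the test of the difference itself (limma, adjusted over all genes tested). Values are migratory minus resident differences on the log2 scale.

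Irf8 stood out among them because it was not called in resident cells, and its difference was 1.38. Of genes called higher in resident cells, the difference was negative for Tlr1 (-2.91), Klrb1b (-2.87), Ms4a4c (-2.70), Pecam1 (-2.57), Gpr82 (-2.48), Clec10a (-2.29), Ms4a6d (-2.28), Pglyrp1 (-1.84), Gbp4 (-1.68), Ccl17 (-1.67), Cd300lf (-1.56), Galnt3 (-1.47), Mgl2 (-1.42) and Tbx21 (-1.11). Clec12a, lower in both cell types, had a difference of -1.02.

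Among genes called lower in resident cells, it was positive for Itga8 (2.51), Elovl6 (2.41), Fzd1 (2.25), Slc7a8 (2.15), Snx22 (2.13), Rtl8c (2.08), Fgd6 (2.0), Gcsam (1.99), Plce1 (1.96), Alpl (1.95), Arhgap42 (1.92), Lipa (1.72), Cltrn (1.69), Tgfbi (1.46), Trpm2 (1.29) and Atp8b4 (1.29). Counts of called differences moved with single arrays, and all of these genes were chosen with the resident comparison or the lists, so they do not represent all 148 genes with a called difference. The test shares its resident arrays with that choice, which favours differences against the resident sign.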

How the results depend on the processing

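The count of called genes in resident DC1 (220) lay between 181 and 223 under other filters, quantile normalization, centring, no trend and mean probe sets. It was 981 with array weights, 429 with each array's spread as a term and 342 with only the 6 arrays compared, and 95 to 177 without 1 array. With array weights all 220 genes were called again. The count for migratory minus resident (148) was 1110 with array weights, 297 without a filter, 30 with the spread term and 17 to 1713 without 1 array; after quantile normalization 62 of 133 were higher, beside 86 of 148. The spleen count (95) was 262 with array weights, 46 with only the arrays compared and 24 to 149 without 1 array. The causes were not tested. Of 71 named called genes, 43 were called in every setting, 28 lost the call in at least 1 and 0 turned sign. Signal near the floor limits dim genes.

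Resident WT and Batf3-/- arrays of the same number had deviations from their group means that correlated at -0.03, 0.21 and -0.02 across genes. Arrays of unlike number correlated at -0.213 to 0.171. With 3 arrays in a group these values depend on each other, so they cannot decide whether the arrays are paired. The numbers go with a shared code of unstated meaning in the titles, and the main fit did not take them to pair the arrays. With the replicate number as a block the counts were 280 for resident cells (218 of the 220 among them), 543 for the difference and 67 for spleen in place of the sort gate. With only the 6 resident arrays and the block, an alternative added after seeing the data, 289 genes were called.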

Other observations

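Called genes on none of the lists, chosen here after their values were seen, included receptors for nucleotides, proteases and prostaglandins, all higher in Batf3-/- resident DC1. P2ry13, a receptor for ADP, stood at 4.80, 5.00 and 4.86 in WT cells against 6.05, 6.73 and 6.31 (1.47 ± 0.17, limma adjusted p = 0.0004). F2rl2, a protease-activated receptor, stood at 6.95, 7.43 and 7.10 against 8.13, 8.27 and 9.14 (1.35 ± 0.24, limma adjusted p = 0.0114), and Ptgdr2, a receptor for prostaglandin D2, was higher by 1.10 ± 0.21 (limma adjusted p = 0.0201). Nlrc4, the scaffold of the inflammasome that detects flagellin, stood at 4.02, 4.13 and 4.09 against 5.44, 5.66 and 5.09 (1.32 ± 0.15, limma adjusted p = 0.000369). P2ry13 and Nlrc4 were called in every leave-one-out fit, and F2rl2 and Ptgdr2 lost the call in 2 and 4 of the 6.

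Other called genes, likewise chosen after their values were seen, changed in both directions. Fzd7, a WNT receptor, stood at 7.14, 7.23 and 6.99 against 5.42, 5.36 and 5.70 (-1.63 ± 0.19, limma adjusted p = 0.000565), and Dkk3, a Dickkopf family protein, was lower (-1.16 ± 0.13, limma adjusted p = 0.000334). The ligand Wnt11 was higher by 0.84 ± 0.19 (limma adjusted p = 0.0455), a call lost in 5 of 6 leave-one-out fits. Bst1, an enzyme that makes cyclic ADP-ribose, stood at 7.43, 7.41 and 7.42 against 5.77, 5.63 and 5.90 (-1.65 ± 0.13, limma adjusted p = 2.53e-05). Xdh, xanthine dehydrogenase, rose from 4.26, 3.99 and 3.82 to 5.39, 5.75 and 5.79 (1.62 ± 0.15, limma adjusted p = 8.96e-05). Spint1, an inhibitor of membrane serine proteases, rose from 6.90, 7.00 and 7.17 to 8.94, 8.91 and 8.50 (1.76 ± 0.19, limma adjusted p = 0.000305).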
